A study of Mus musculus with 10 samples.

Results

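This report describes 10 genes that restrain the cell cycle or are known targets of the tumour suppressor p53, chosen by name: Cdkn1a, Cdkn1b, Cdkn2a, Cdkn2b, Cdkn2c, Mdm2, Ccng1, Plk3, Gadd45a and Trp53inp1. All 10 had a row among the 16475 genes measured. Expression was measured in kidney cortex deprived of glomeruli, taken at 24 weeks of age from 5 diabetic BKS db/db mice and 5 non-diabetic BKS db/m littermates, with 1 Affymetrix array for each mouse. By the usual meaning of these names, db/db mice are homozygous for the db allele of Lepr, the gene of the leptin receptor, and db/m mice are heterozygous carriers. The allele acts in the whole body, so the effects of diabetes, of obesity and of lost leptin signalling cannot be told apart in this comparison. The series title names metabolic reprogramming in diabetic complications, and db/db was therefore compared with db/m, once with all 10 arrays and once without db/db 1.

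Progress from G1 into DNA replication requires cyclin-dependent kinases (CDKs). Inhibitors of the Cip/Kip family (Cdkn1a, Cdkn1b) bind cyclin-CDK complexes, whereas those of the INK4 family (Cdkn2a, Cdkn2b, Cdkn2c) bind CDK4 and CDK6. The transcription factor p53 is stabilised after DNA damage and other stress and induces Cdkn1a, Mdm2, Ccng1, Plk3, Gadd45a and Trp53inp1, among many genes. In the kidney, Cdkn1a is known as a gene that tubular cells induce after injury.

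Values are log2 expression levels, and a change is db/db minus db/m on that scale, given with its standard error. A gene passed the test at a Benjamini-Hochberg adjusted p under 0.05, adjusted over all 16475 genes in limma. Markers of the proximal tubule were bright, with gene means of 12.69 (Gatm) to 14.13 (Miox) over the 10 arrays. Those of the 4 podocyte markers measured ran from 7.86 (Nphs1) to 10.97 (Synpo). In db/db 1, 858 genes lay more than 4-fold from the db/m mean, and in db/db mice 2 to 5 the number was 45 to 107. The db/db 1 array also stood apart in the injury and immune markers given below. Precision is limited by having 5 mice in each group, and p-values weigh the group difference against the spread between these mice. In whole tissue, fewer cells of a type and less RNA per cell cannot be told apart.

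Of the 10 genes, Cdkn1a and Plk3 rose in db/db cortex with all 10 arrays, and 0 fell. Among all genes, 2.96% passed in the higher and 3.54% in the lower direction. At an unadjusted p under 0.05 by limma, 3 of the 10 were higher and 0 lower, where 21.5% of all genes passed in either direction. With db/db 1 left out, Cdkn1a and Trp53inp1 rose and again 0 fell, beside 6.84% of all genes higher and 5.93% lower; at an unadjusted p under 0.05, 3 were higher and 0 lower by limma, beside 26.5% of all genes in either direction. In Cdkn1a, Plk3 and Trp53inp1 every db/db mouse lay above every db/m mouse, and no gene of the 10 showed the opposite. With 10 arrays 4.35% of all genes were separated in this direction and 5.85% in the other; without db/db 1 the shares were 7.76% and 7.61%. The median change of the 10 genes was 0.21, or 0.12 without db/db 1, and that of all genes was -0.03 and -0.01. Only Cdkn1a passed in each of the 10 fits with 1 array removed.

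**Figure D1:**
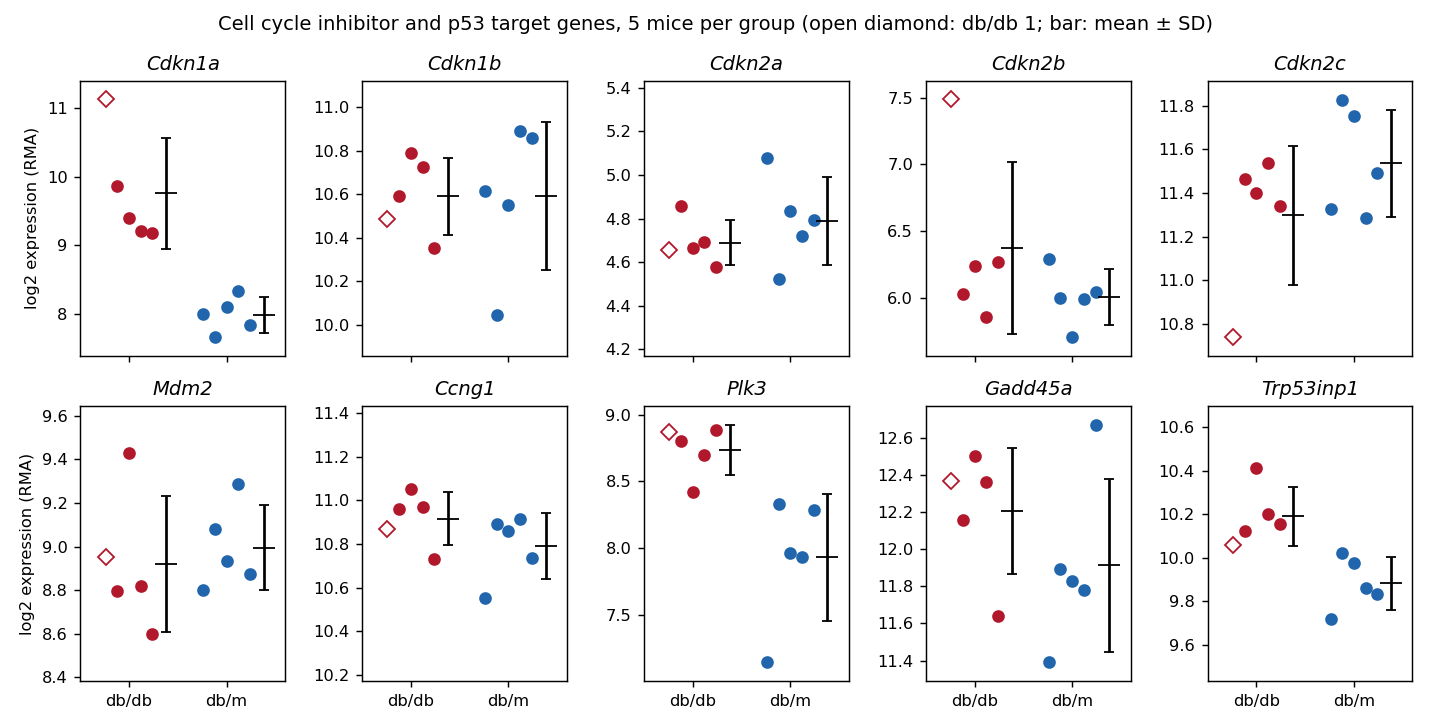
Log2 expression of the 10 genes in each mouse, with the 5 db/db mice in red and the 5 db/m mice in blue; the open diamond is db/db 1, and black bars give the mean ± SD. The vertical scales differ between genes. The db/db points lie wholly above the db/m points for Cdkn1a, Plk3 and Trp53inp1, and db/db 1 lies away from the other 9 mice for Cdkn2b, at 7.49, and for Cdkn2c, at 10.74.

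Cdkn1a encodes p21, a CDK inhibitor that is the best known transcriptional target of p53; the gene lies on chromosome 17. Its log2 level was 11.13, 9.86, 9.40, 9.21 and 9.18 in db/db mice 1 to 5, against 8.0, 7.66, 8.10, 8.34 and 7.83 in db/m mice 1 to 5. The lowest db/db mouse was 0.85 above the highest db/m mouse, and db/db 1 was the highest of all. The mean was 9.76 ± 0.81 in db/db and 7.99 ± 0.26 in db/m (SD, n = 5 each), a 3.41-fold rise (1.77 ± 0.34, limma adjusted p = 0.0154). Without db/db 1 the db/db mean was 9.41 ± 0.31 (SD, n = 4) and the rise 2.69-fold (1.43 ± 0.17, limma adjusted p = 0.000916). Removing any single array left the change between 1.43 and 1.91, and the highest limma adjusted p was 0.0426, with db/m 3 removed. Removing db/db 1 together with db/db 2, an alternative added once the data had been seen, gave a change of 1.28 (limma adjusted p = 0.00151).

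Promoter windows from RefSeq (GRCm38.p6), reaching from 250 bases before to 50 bases after a start site, were found for 9 of the 10 genes. They are shown for Cdkn1a, which has a window at each of its annotated start sites, for Plk3, which also passed with 10 arrays, and for the p53 targets Mdm2 and Ccng1, which did not pass. Capitals mark the p53 decamer, the 10-letter unit of the p53 response element, and the GC box GGGCGG or its reverse complement; both strands were searched, and the marked motifs do not overlap.
Cdkn1a upstream start, chr17:29090729-29091028, plus strand: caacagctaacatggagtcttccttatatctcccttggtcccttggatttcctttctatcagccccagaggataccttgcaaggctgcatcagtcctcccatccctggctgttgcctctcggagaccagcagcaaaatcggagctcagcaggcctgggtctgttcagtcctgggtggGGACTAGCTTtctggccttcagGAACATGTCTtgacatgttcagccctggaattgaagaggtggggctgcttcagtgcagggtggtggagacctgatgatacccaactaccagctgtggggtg
Cdkn1a downstream start, chr17:29093519-29093818, plus strand: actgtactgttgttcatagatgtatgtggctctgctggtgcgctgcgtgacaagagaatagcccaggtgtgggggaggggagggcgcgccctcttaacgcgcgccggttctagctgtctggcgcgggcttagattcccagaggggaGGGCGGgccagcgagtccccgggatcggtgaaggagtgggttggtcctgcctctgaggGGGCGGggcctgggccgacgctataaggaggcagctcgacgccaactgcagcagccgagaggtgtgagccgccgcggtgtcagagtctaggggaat
Plk3, chr4:117133914-117134213, minus strand: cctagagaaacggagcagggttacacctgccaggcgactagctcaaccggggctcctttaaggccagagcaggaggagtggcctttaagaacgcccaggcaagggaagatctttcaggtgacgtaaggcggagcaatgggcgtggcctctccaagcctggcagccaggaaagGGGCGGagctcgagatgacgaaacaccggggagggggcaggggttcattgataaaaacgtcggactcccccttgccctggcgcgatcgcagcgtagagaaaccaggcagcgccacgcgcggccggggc
Mdm2, chr10:117710709-117711008, minus strand: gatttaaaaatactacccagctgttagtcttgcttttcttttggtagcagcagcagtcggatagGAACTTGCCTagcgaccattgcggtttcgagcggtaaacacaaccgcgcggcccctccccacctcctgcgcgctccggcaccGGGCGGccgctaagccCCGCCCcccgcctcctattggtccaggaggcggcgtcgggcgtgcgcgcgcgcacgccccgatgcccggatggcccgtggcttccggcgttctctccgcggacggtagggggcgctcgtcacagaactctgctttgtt
Ccng1, chr11:40755237-40755536, minus strand: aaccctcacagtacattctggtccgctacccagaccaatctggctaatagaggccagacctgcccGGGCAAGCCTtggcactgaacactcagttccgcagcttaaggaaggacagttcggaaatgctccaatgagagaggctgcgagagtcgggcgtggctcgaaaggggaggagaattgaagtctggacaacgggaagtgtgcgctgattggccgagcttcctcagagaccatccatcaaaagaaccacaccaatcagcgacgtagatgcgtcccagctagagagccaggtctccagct

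The upstream Cdkn1a window held exact matches of the p53 decamer beginning at -73 and -51 relative to the start site, GGACTAGCTT and GAACATGTCT, with 12 bases between them. Inexact matches were not counted: tgacatgttc, directly after GAACATGTCT, differs from the decamer pattern only in its first letter. Windows with 2 decamers at most 13 bases apart made up 0.0731% of all 32851 windows. A decamer also occurred at -186 in Mdm2 (GAACTTGCCT), at -185 in Ccng1 (GGGCAAGCCT) and at -40 in Gadd45a (GGGCTAGCCC). Thus 4 of the 12 windows of these 9 genes held a decamer, beside 8.36% of all windows of this length. The Plk3 window and the downstream Cdkn1a window held none, and GC boxes occurred in 9 of the 12 windows, beside 35.7% of all windows. Of the 12 windows only one of Cdkn2c, at 44% GC, lay below the 52.7% median of all windows, and one of Cdkn2a reached 77%. GC content was not taken into account in these motif shares. A match of letters does not show binding, and of the 4 genes with a decamer only Cdkn1a passed the expression test in either fit.

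Plk3 encodes a polo-like kinase of stress responses, which phosphorylates p53 in human cells. Its log2 level was 8.87, 8.80, 8.42, 8.70 and 8.89 in db/db mice 1 to 5, against 7.14, 8.33, 7.96, 7.93 and 8.29 in db/m mice 1 to 5. The groups did not overlap, but the gap between them was 0.095, and db/m 1 lay well below the other db/m mice. The mean was 8.74 ± 0.19 in db/db and 7.93 ± 0.48 in db/m (SD, n = 5 each), a 1.75-fold rise (0.81 ± 0.21, limma adjusted p = 0.0491). This call stood at the threshold: without db/db 1 the change was 0.77 ± 0.22 with a limma adjusted p = 0.0504. Plk3 passed in 2 of the 10 fits with 1 array removed, those lacking db/m 1 or db/m 2, and the limma adjusted p was highest, at 0.109, when db/m 3 was removed. It was 0.0605 after each array was centred on its median.

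Trp53inp1 encodes a stress-induced nuclear protein that promotes p53 activity and takes part in autophagy. It had log2 levels of 10.06, 10.12, 10.41, 10.20 and 10.15 in db/db mice 1 to 5, against 9.72, 10.02, 9.98, 9.86 and 9.83 in db/m mice 1 to 5. All 5 db/db mice were above all 5 db/m mice, by a gap of 0.036. The mean was 10.19 ± 0.14 in db/db and 9.88 ± 0.12 in db/m (SD, n = 5 each), a 1.24-fold difference (0.31 ± 0.09) that missed the threshold (limma adjusted p = 0.0673). When db/db 1, the lowest of the db/db mice for this gene, was left out, it rose 1.27-fold (0.34 ± 0.09, limma adjusted p = 0.0307). In that comparison the limma adjusted p was 0.0549 after the arrays were centred on their medians.

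**Figure D2:**
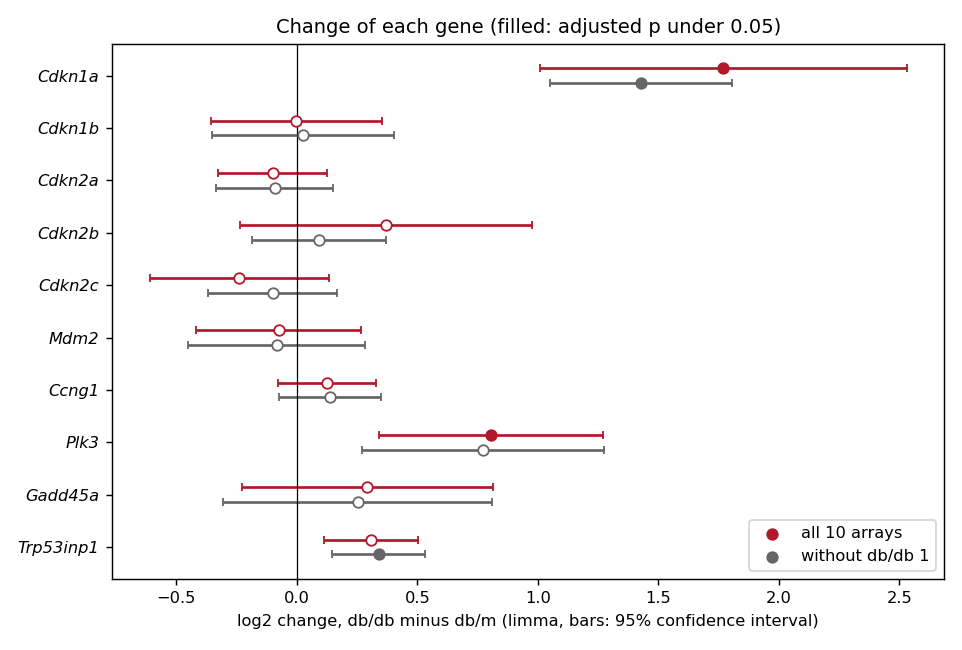
Log2 change of each gene, db/db minus db/m, from limma with 95% confidence intervals, with all 10 arrays in red and without db/db 1 in grey; filled points passed at an adjusted p under 0.05. Cdkn1a lies at 1.77 and 1.43, and the intervals of Cdkn1b, Cdkn2a, Cdkn2b, Cdkn2c, Mdm2, Ccng1 and Gadd45a include 0 in both fits.

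The other Cip/Kip gene of the set did not pass. Cdkn1b encodes p27, which holds cyclin E-CDK2 inactive in resting cells. Its log2 level ranged from 10.36 to 10.79 in db/db and from 10.05 to 10.89 in db/m, and all 5 db/db mice lay within the db/m range. The change was -0.0017 ± 0.16 (limma adjusted p = 0.996), with a 95% interval of -0.36 to 0.35, and its sign turned under several settings, to 0.024 without db/db 1.

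Among the INK4 genes none passed with 10 arrays or without db/db 1, and db/db 1 stood apart in 2 of the 3. Cdkn2b encodes p15, an inhibitor that TGF-beta induces. Its log2 level was 7.49, 6.03, 6.24, 5.86 and 6.27 in db/db mice 1 to 5, against 6.29, 6.0, 5.71, 5.99 and 6.05 in db/m mice 1 to 5. db/db 1 was 1.38 above the mean of the other 4 db/db mice, which lay within the db/m range. The change was 0.37 ± 0.27 (limma adjusted p = 0.479) with 10 arrays and 0.093 ± 0.12 (limma adjusted p = 0.711) without db/db 1, where the 95% interval ran from -0.19 to 0.37.

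Cdkn2c encodes p18, the INK4 protein known from resting and differentiated cells. Its log2 level was 10.74, 11.46, 11.40, 11.54 and 11.34 in db/db mice 1 to 5, against 11.33, 11.83, 11.75, 11.28 and 11.49 in db/m mice 1 to 5. Here db/db 1 was the lowest array, 0.69 below the mean of the other 4 db/db mice. The change was -0.24 ± 0.17 (limma adjusted p = 0.453), or -0.10 ± 0.12 (limma adjusted p = 0.67) without db/db 1. Thus in db/db 1 the INK4 genes Cdkn2b and Cdkn2c departed from the other db/db mice in opposite directions.

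Cdkn2a encodes both p16 and, in another reading frame, p19Arf, which restrains Mdm2; 1 value per gene does not separate them. It was dim, in the lowest 25% of genes by mean level, with log2 levels of 4.58 to 4.86 in db/db and 4.52 to 5.08 in db/m. The change was -0.10 ± 0.10 (limma adjusted p = 0.617; 95% interval -0.33 to 0.13). Differences at this level are hard to measure on an array, and all 5 db/db mice, db/db 1 included, lay within the db/m range.

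The p53 feedback genes did not pass. Mdm2 encodes the ubiquitin ligase that degrades p53. Its log2 level was 8.95, 8.80, 9.43, 8.82 and 8.60 in db/db mice 1 to 5, against 8.80, 9.08, 8.93, 9.29 and 8.87 in db/m mice 1 to 5. The groups overlapped, with db/db 3 the highest of the 10 mice and db/db 5 the lowest, and the change was -0.076 ± 0.15 (limma adjusted p = 0.816; 95% interval -0.42 to 0.27). Its upper end lies below the lower end of the interval of Cdkn1a, 1.01.

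Ccng1 encodes cyclin G1, a p53 target that recruits protein phosphatase 2A to Mdm2. Its log2 level was 10.87, 10.96, 11.05, 10.97 and 10.73 in db/db mice 1 to 5, against 10.55, 10.89, 10.86, 10.91 and 10.74 in db/m mice 1 to 5. Of the db/db mice 3 lay above the db/m range and the other two did not, and the change was 0.13 ± 0.09 (limma adjusted p = 0.475; 95% interval -0.08 to 0.33).

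Gadd45a, a growth arrest gene whose protein binds PCNA and CDK1, had log2 levels of 12.37, 12.16, 12.50, 12.36 and 11.64 in db/db mice 1 to 5, against 11.39, 11.89, 11.83, 11.78 and 12.67 in db/m mice 1 to 5. In this gene db/m 5 was the highest and db/m 1 the lowest of the 10 mice, so all 5 db/db mice lay inside the db/m range. The change was 0.29 ± 0.23 (limma adjusted p = 0.518), and 0.48 without db/m 5 (limma adjusted p = 0.188). The 95% interval with 10 arrays ran from -0.23 to 0.81.

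Of the 10 genes, 5 lie on chromosome 4, which also holds Lepr. By the RefSeq annotation (GRCm38.p6), Plk3 lies 15.4 Mb from Lepr, Cdkn2a and Cdkn2b 12.4 Mb each and Cdkn2c 7.94 Mb, whereas Trp53inp1 lies 90.6 Mb away. Within 20 Mb of Lepr 26 of 245 genes passed with 10 arrays, or 10.6% beside 6.51% of all genes, and 40 of 245 passed without db/db 1, or 16.3% beside 12.8% of all genes. The db/db and db/m mice differ in genotype at Lepr by design, so alleles linked to Lepr and diabetes cannot be told apart for Plk3, Cdkn2a, Cdkn2b and Cdkn2c. Cdkn1a, on chromosome 17, is not linked to Lepr. Lepr itself was dim, at 4.48 ± 0.14 in db/db and 4.56 ± 0.09 in db/m (SD, n = 5 each), and its change was -0.079 ± 0.084 (limma adjusted p = 0.637).

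**Figure D3:**
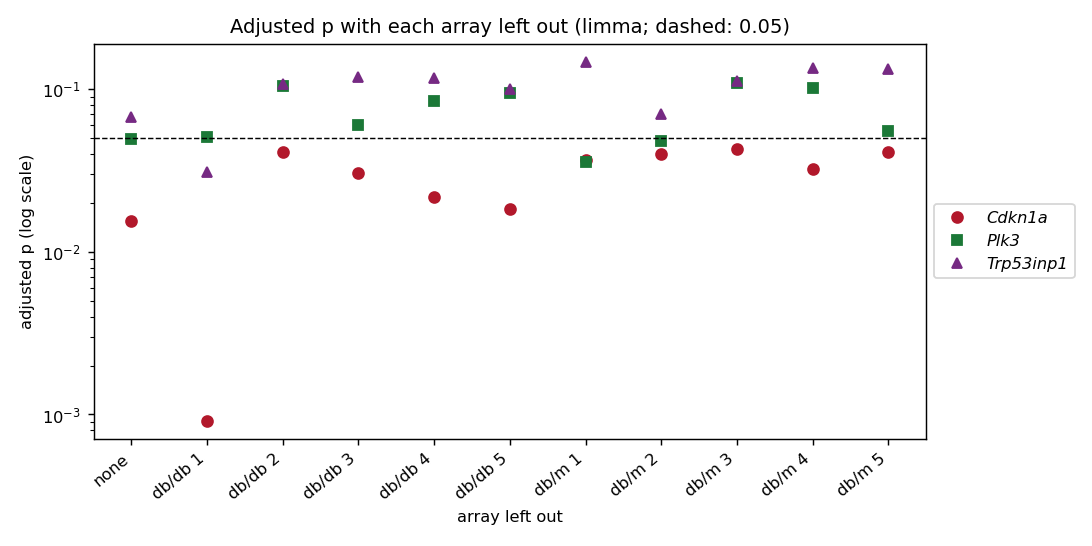
Limma adjusted p of Cdkn1a, Plk3 and Trp53inp1 with all arrays (none left out) and with each array left out in turn, on a log axis; the dashed line is 0.05. Cdkn1a stays below the line in every fit shown, with a lowest value of 0.000916 without db/db 1, while Plk3 is below it in 2 of the 10 fits that leave out 1 array and Trp53inp1 in 1.

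Other p53 target genes with a symbol in the annotation used passed at about the rate of all genes or below it. Bax, Gdf15, Eda2r and Fdxr were listed but not found under a symbol, so they are not covered. Of 37 listed, 33 were found under a symbol in the annotation used, of which 1 rose and 0 fell with 10 arrays (3.03%, beside 6.51% of all genes), and at an unadjusted p under 0.05, 3 were higher and 4 lower by limma, beside 21.5% of all genes in either direction. Without db/db 1 the share called was 9.09%, beside 12.8% of all genes. The median change was 0.0092, beside -0.03 for all genes. The gene that rose was Epha2, an ephrin receptor gene, at 7.52 ± 0.24 in db/db and 6.72 ± 0.20 in db/m (SD, n = 5 each; 0.81 ± 0.13, limma adjusted p = 0.00765), and it passed with any 1 array removed. In the fit lacking db/db 1, 2 rose and 1 fell: Epha2 (0.71), the AKT inhibitor gene Phlda3 (0.71 ± 0.20, limma adjusted p = 0.0472) and the death domain gene Pidd1 (-0.20 ± 0.06, limma adjusted p = 0.0473). Phlda3 and Pidd1 missed the threshold with 10 arrays, at limma adjusted p = 0.0649 and 0.0708.

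Among 14 measured genes of p53 regulation 0 passed with 10 arrays by limma, beside 6.51% of all genes. At an unadjusted p under 0.05 by limma, 1 was higher and 4 lower, beside 21.5% of all genes in either direction. The nearest was Trp53bp1, a scaffold protein gene of DNA break repair, at 10.76 ± 0.15 in db/db and 11.06 ± 0.16 in db/m (SD, n = 5 each; -0.30 ± 0.10, limma adjusted p = 0.115), and it fell by 0.36 without db/db 1 (limma adjusted p = 0.0245). Rows that the annotation used does not name, that of Trp53 among them, were tested unnamed, and Trp53 is not analysed here.

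Paralogs of the 10 genes were also examined, and 11.1% passed with 10 arrays, beside 6.51% of all genes. Of 9 measured 1 rose and 0 fell: Cdkn1c, which encodes p57, the Cip/Kip inhibitor found in podocytes, was at 10.31 ± 0.36 in db/db and 9.51 ± 0.29 in db/m (SD, n = 5 each; 0.80 ± 0.19, limma adjusted p = 0.0357). It passed in 2 of the 10 fits with 1 array removed. The limma adjusted p was 0.0861 with db/m 4 removed and 0.0525 after median centring. Without db/db 1, Cdkn1c rose by 0.94 ± 0.15 (limma adjusted p = 0.00426). For this gene db/db 1, at 9.75, lay within the db/m range of 9.20 to 9.86, and db/db mice 2 to 5 lay above it. Of the 4 podocyte markers measured 2 rose with 10 arrays and 4 without db/db 1, and their mean level was 9.11 in db/db 1 and 9.47 to 9.58 in db/db mice 2 to 5, against 8.83 to 9.17 in db/m. Markers of other cell types rose as well: of 4 each for the distal and connecting tubule and for principal cells, 1 and 0 rose with 10 arrays, and 4 and 3 without db/db 1. Among all genes 2.96% rose with 10 arrays and 6.84% without db/db 1. The part of these cell types in the Cdkn1c result was not tested. With db/db 1 left out, Gadd45b, the stress-induced relative of Gadd45a, also rose (0.67 ± 0.18, limma adjusted p = 0.0427), against 1.18 (limma adjusted p = 0.192) with 10 arrays.

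The targets of the inhibitors, the G1 cyclins, their kinases and the pocket proteins, changed in both directions. Of 20 measured 1 rose and 1 fell, or 10% beside 6.51% of all genes, with a median of 0.047. At an unadjusted p under 0.05, 4 were higher and 3 lower by limma, beside 21.5% of all genes in either direction. Rb1, which encodes the retinoblastoma protein that CDK4 and CDK6 phosphorylate, was at 11.01 ± 0.08 in db/db and 10.67 ± 0.06 in db/m (SD, n = 5 each; 0.34 ± 0.06, limma adjusted p = 0.0131) and passed with any 1 array removed, though not after median centring (0.27, limma adjusted p = 0.0771). E2f6, a repressor of the E2F family, was at 10.46 ± 0.13 in db/db and 10.76 ± 0.05 in db/m (SD, n = 5 each; -0.30 ± 0.07, limma adjusted p = 0.0422). It passed in 2 of those 10 fits, and the limma adjusted p was 0.108 with db/m 3 removed. The cyclin D1 gene Ccnd1 rose without db/db 1 (0.52 ± 0.07, limma adjusted p = 0.00167) and was at 0.30 (limma adjusted p = 0.469) with 10 arrays.

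Division and replication genes were higher at the median. With 10 arrays, 13 of 23 measured were higher and 0 lower at an unadjusted p under 0.05 by limma, beside 21.5% of all genes in either direction. After adjustment 3 rose and 0 fell, or 13% beside 6.51% of all genes, and the median change was 0.80. Those that rose were the replication helicase genes Mcm5 (1.07 ± 0.26, limma adjusted p = 0.0367) and Mcm4 (0.65 ± 0.10, limma adjusted p = 0.00663) and the ribonucleotide reductase gene Rrm2 (1.02 ± 0.22, limma adjusted p = 0.0226). Of the 10 fits with 1 array removed Mcm4 passed in 10, Rrm2 in 6 and Mcm5 in 3; the limma adjusted p was 0.0673 for Rrm2 with db/m 3 removed and 0.088 for Mcm5 with db/m 4 removed. In the fit lacking db/db 1 the median was 0.52, and 4 genes rose (17.4%, beside 12.8% of all genes called), with the helicase gene Mcm2 added (0.56 ± 0.15, limma adjusted p = 0.0388). The mean level of the list was 8.76, 8.59, 7.59, 7.36 and 7.38 in db/db mice 1 to 5, against 7.57, 7.10, 7.14, 6.98 and 7.31 in db/m mice 1 to 5, so db/db 1 and db/db 2 were high, db/db 3 was just above db/m 1, and db/db 4 and db/db 5 lay within the db/m range.

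**Figure D4:**
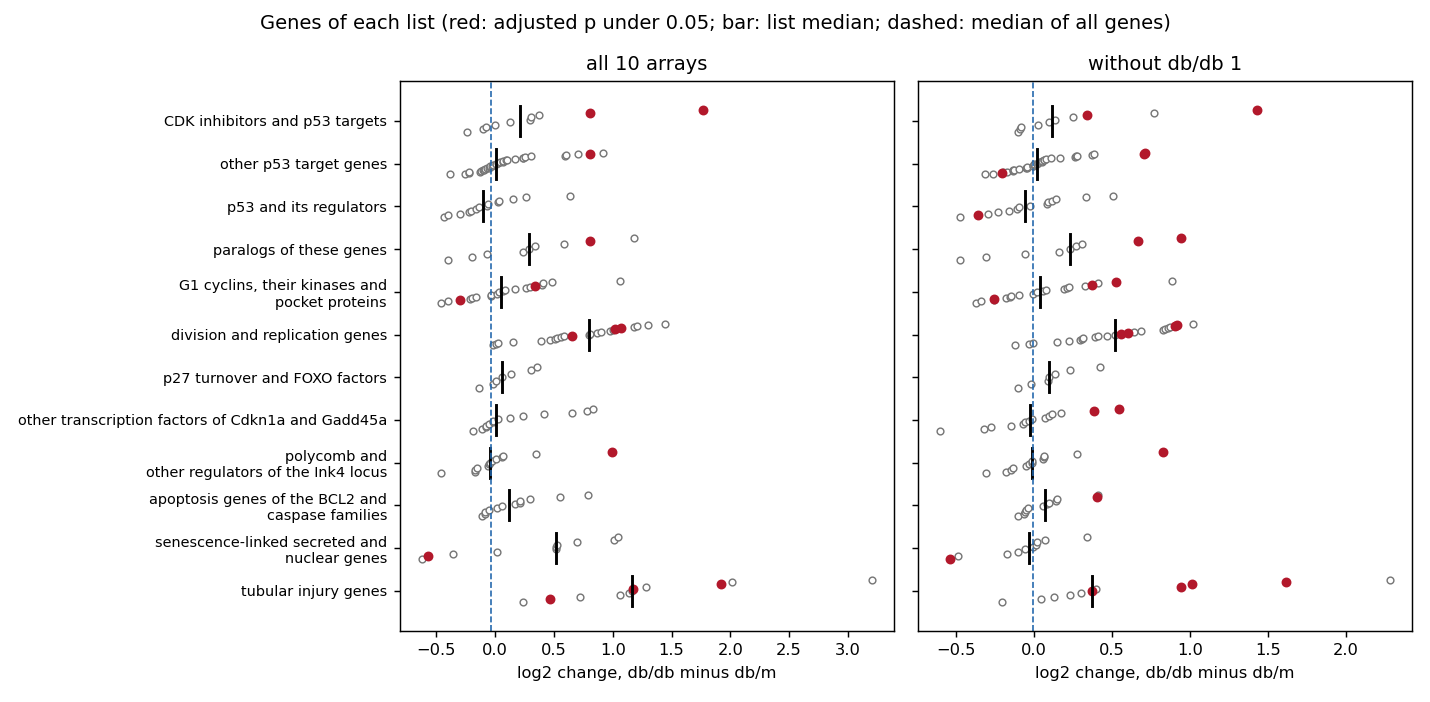
Log2 change, db/db minus db/m, of each measured gene in 12 lists, with all 10 arrays at left and without db/db 1 at right. Red points passed at an adjusted p under 0.05, black bars are list medians, and the dashed line is the median of all genes (-0.03 and -0.01). The median of the division and replication genes is 0.80 at left and 0.52 at right, and that of the tubular injury genes is 1.17 and 0.37.

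Next came regulators of the inhibitors and genes of apoptosis. Of 7 measured genes of p27 turnover and FOXO factors, 14 other transcription factors of Cdkn1a and Gadd45a, and 12 apoptosis genes of the BCL2 and caspase families, 0 passed with 10 arrays by limma, with 0, 2 and 2 genes at an unadjusted p under 0.05. With 6.51% of all genes called, 0 calls in lists of this size is near the background, and 21.5% of all genes passed at the unadjusted threshold by limma. The nearest in each were Foxo3, a factor that induces Cdkn1b (0.35 ± 0.17, limma adjusted p = 0.255), Klf4, a factor that induces Cdkn1a (0.78 ± 0.25, limma adjusted p = 0.0973), and Bcl2l11, which encodes the pro-apoptotic protein BIM (0.55 ± 0.17, limma adjusted p = 0.0821). With db/db 1 left out, Klf4 (0.55, limma adjusted p = 0.0392), the stress factor gene Cebpb (0.39, limma adjusted p = 0.0173) and Bcl2l11 (0.40, limma adjusted p = 0.0457) rose. These calls made up 14.3% of the 14 transcription factors and 8.33% of the 12 apoptosis genes, near the 12.8% of all genes called in that fit. Of the p27 turnover and FOXO factors 0 passed.

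Of 13 regulators of the Ink4 locus, among them the polycomb genes, 1 rose and 0 fell, or 7.69% beside 6.51% of all genes. The gene that rose was Id1, an inhibitor of ETS and helix-loop-helix factors, at 10.75 ± 0.48 in db/db and 9.76 ± 0.16 in db/m (SD, n = 5 each; 0.99 ± 0.21, limma adjusted p = 0.0211). It passed in 7 of the 10 fits with 1 array removed, with a limma adjusted p of 0.0598 where db/m 3 was removed. Of 10 senescence-linked genes 1 fell and 0 rose, or 10% beside 6.51% of all genes. At an unadjusted p under 0.05 by limma, 1 was higher and 2 lower, beside 21.5% of all genes in either direction. The gene that fell was Glb1, the gene of the lysosomal beta-galactosidase that is stained as a senescence marker, at 11.83 ± 0.21 in db/db and 12.40 ± 0.09 in db/m (SD, n = 5 each; -0.57 ± 0.10, limma adjusted p = 0.0108), and it passed in all 10 of those fits. The median of this list was 0.52 with 10 arrays and -0.03 without db/db 1, so its sign rested on that array.

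Tubular injury genes had a median change of 1.17 with 10 arrays and of 0.37 without db/db 1. With 10 arrays, 5 of 11 measured tubular injury genes were higher and 0 lower at an unadjusted p under 0.05 by limma, beside 21.5% of all genes in either direction. After adjustment 3 rose and 0 fell, or 27.3% beside 6.51% of all genes. The genes that rose were the keratin genes Krt19 (1.92 ± 0.42, limma adjusted p = 0.0261) and Krt18 (1.17 ± 0.22, limma adjusted p = 0.0131) and the clusterin gene Clu (0.47 ± 0.11, limma adjusted p = 0.0396). Krt18 passed with any 1 array removed, Krt19 in 4 of those 10 fits and Clu in 2; the limma adjusted p was 0.0727 for Krt19 with db/m 3 removed and 0.0907 for Clu with db/m 1 removed. Krt20 rose without db/db 1 (1.01 ± 0.29, limma adjusted p = 0.0474) and was at 2.01 (limma adjusted p = 0.242) with 10 arrays. The mean level of the list was 12.59, 10.03, 9.44, 8.84 and 8.91 in db/db mice 1 to 5, against 8.54, 8.38, 8.5, 9.22 and 8.63 in db/m mice 1 to 5. Cdkn1a and this list were both highest in db/db 1, followed by db/db 2 and db/db 3. In db/db mice 4 and 5 the list mean lay within the db/m range, below db/m 4 but above the other db/m mice. Their order differed from that for Cdkn1a. Of the 11 genes, 4 were higher in every db/db mouse than in every db/m mouse, beside 4.35% of all genes. The reverse held for 0 of the 11, beside 5.85% of all genes. The part of tubular injury in the Cdkn1a result was not tested.

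Macrophage and neutrophil markers were also highest in db/db 1 and declined towards db/db 5 in the order seen for Cdkn1a. Unlike Cdkn1a, they were not above db/m in every db/db mouse. The mean level of 5 macrophage markers was 12.13, 9.97, 8.36, 8.21 and 7.88 in db/db mice 1 to 5, against 9.05 to 9.23 in db/m, so it was above db/m in db/db 1 and db/db 2 and below db/m in db/db mice 3 to 5. Of these markers 0 passed with 10 arrays by limma, beside 6.51% of all genes, and 1 fell without db/db 1, beside 5.93% of all genes lower. The 3 neutrophil markers measured averaged 11.90, 9.68, 9.12, 6.27 and 6.22 in db/db mice 1 to 5, against 6.23 to 7.18 in db/m. Fibroblast and smooth muscle markers averaged 10.98 in db/db 1 and 8.95 to 9.95 in db/db mice 2 to 5, against 9.39 to 9.74 in db/m, and the 4 T and B cell markers 7.94 in db/db 1 and 5.45 to 6.07 in db/db mice 2 to 5, against 5.89 to 6.26 in db/m. The part of these cells in the Cdkn1a rise, and in the high Cdkn2b and low Cdkn2c levels of db/db 1, was not tested.

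In db/db 1, where Cdkn2c was low, tubule markers were lower as well. Proximal tubule markers averaged 12.90 in db/db 1 and 13.45 to 13.48 in db/db mice 2 to 5, against 13.31 to 13.48 in db/m. Intercalated cell markers averaged 8.25 in db/db 1 and 9.84 to 10.29 in db/db mice 2 to 5, against 9.28 to 9.88 in db/m, and markers of the distal and connecting tubule 10.05 in db/db 1 and 11.86 to 12.12 in db/db mice 2 to 5, against 11.39 to 11.73 in db/m. Principal cell markers averaged 9.47 in db/db 1 and 10.68 to 11.07 in db/db mice 2 to 5, against 10.13 to 10.48 in db/m, and markers of the thick ascending limb 11.22 in db/db 1 and 12.16 to 12.44 in db/db mice 2 to 5, against 12.16 to 12.49 in db/m. Each of these tubule segments was thus lower in db/db 1 than in every other mouse. Endothelial markers averaged 8.69 in db/db 1 and 8.87 to 8.92 in db/db mice 2 to 5, against 8.68 to 8.95 in db/m. Their part in the Cdkn2c value was not tested.

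**Figure D5:**
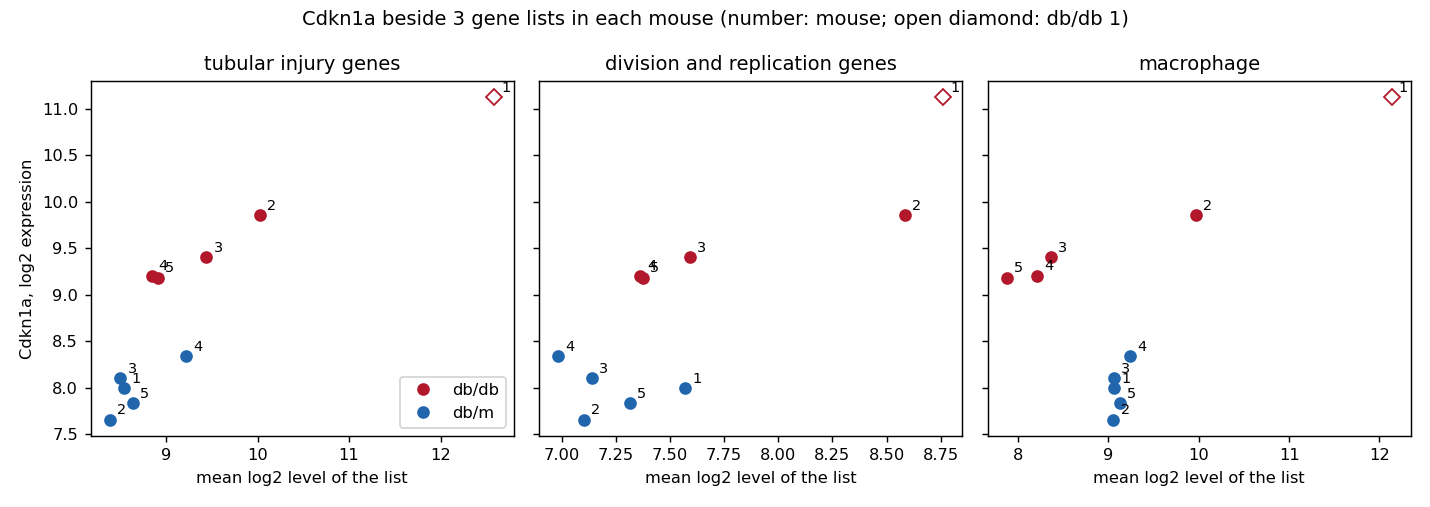
Log2 expression of Cdkn1a in each mouse against the mean log2 level of the tubular injury, division and replication, and macrophage lists, with db/db in red, db/m in blue and mouse numbers beside the points; the open diamond is db/db 1. Mice db/db 4 and db/db 5 lie above every db/m mouse for Cdkn1a, at 9.21 and 9.18, with injury list means of 8.84 and 8.91 inside the db/m range of 8.38 to 9.22. Among db/m mice only db/m 4, at 9.22, has a higher injury list mean. The list mean does not show single genes: of the 11 injury genes measured, 4 are higher in every db/db mouse than in every db/m mouse, beside 4.35% of all genes.

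Likeness was measured for the 2 genes called with 10 arrays as the root mean square difference over the 10 arrays between the deviations of 2 genes from their own db/m means. Genes chosen in this way share the group difference of the called gene by construction, so their changes and test results are description only. Nearest to Cdkn1a were Myof, which encodes the membrane repair protein myoferlin (0.31 log2 units), the complement protease gene Masp1 (0.31) and the endocytic receptor gene Ly75 (0.32), against a median of 1.42 over all named genes. Their changes were 1.57 ± 0.27, 2.10 ± 0.31 and 1.54 ± 0.37 (limma adjusted p = 0.00901, 0.00473 and 0.0367). Ly75 passed in 3 of the 10 fits with 1 array removed, and its limma adjusted p was 0.0908 with db/m 3 removed. Nearest to Plk3 were the cell cycle regulator gene Rgcc, the ribosomal protein gene Rps4l and Itprip, whose protein interacts with the inositol trisphosphate receptor (each 0.25, against a median of 0.71). Rgcc rose by 0.79 ± 0.17 (limma adjusted p = 0.022) and Itprip by 0.75 ± 0.14 (limma adjusted p = 0.0142), while Rps4l missed the threshold (0.58 ± 0.16, limma adjusted p = 0.0556), and its probes may also measure related ribosomal protein genes. Rgcc passed in 8 and Itprip in 10 of those fits, and the limma adjusted p of Rgcc was 0.0588 with db/m 3 removed.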

How the data were processed

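Each of the 10 arrays is 1 mouse, and the labels' mouse titles gave the groups. The deposited values are log2 expression, 1 per Entrez Gene ID; the submitters' processing notes name RMA, which adjusts background, quantile-normalises and summarises probes. Neither the RMA version nor how probes were regrouped to genes was found in the labels. Quantile normalisation makes changes relative to the other genes. Of 16539 rows, 64 control rows were left out; 15780 of 16475 genes had 1 symbol in the supplied annotation, 0 had several and 695 were tested but unnamed, and 15752 were matched by Entrez ID to the RefSeq table (GRCm38.p6) for current symbols. Array medians were 8.46 to 8.66.

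The db/db and db/m arrays were fitted in limma 3.58.1 under R 4.3.3 (lmFit, eBayes, two-sided, db/db minus db/m, Benjamini-Hochberg over all genes), checked on simulated data. Genes and lists were chosen with earlier results of these data known. Beside the 10 genes and Lepr, the text names up to 3 called genes per list, or the one nearest the threshold, and the 3 genes most like each called gene; genes called only without db/db 1 (Phlda3, Pidd1, Gadd45b, Ccnd1, Mcm2, Cebpb and Krt20) were added after their values were seen. Alternatives were the mouse number as a block, dim genes left out, repeated quantile normalisation, median centring, array weights, a trended and robust eBayes, control rows included, each array left out and other windows around Lepr. Figures used Python 3.11.15 and matplotlib 3.10.9.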

Additional observations from a re-analysis of the deposited data

Results flagged for a closer look

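In db/db 1 the log2 level of Cdkn2b was 7.486, far above the next highest db/db mouse at 6.27, and that of Cdkn2c was 10.74, far below the next lowest at 11.34. Divided by the range of the 5 db/db mice, the gap was 0.744 for Cdkn2b and 0.753 for Cdkn2c, both above Dixon's critical value of 0.71. Of the 20 groups examined (10 genes in 2 groups) these 2 were beyond it, where chance gives about 1 in 20. Both fell on db/db 1, where 858 genes lay more than 4-fold from the db/m mean, against 45 to 107 in db/db mice 2 to 5. The share of all genes beyond the critical value was not computed, so the flags are not read as particular to Cdkn2b and Cdkn2c. Cdkn1a in the same array, at 11.13, gave a ratio of 0.652 and was not beyond it.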

How the results depend on the processing

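Over all genes limma called 1072 (488 higher, 584 lower) with 10 arrays, 393 with the mouse number as a replicate block, 2641 with array weights, 490 to 2104 with 1 array left out and 1834 without db/db 1 and 2. Counts moved by over 1.5 times without db/db 1 (2104), db/db 2 (644), db/db 3 (674), db/m 1 (684), db/m 3 (490), db/m 4 (576) and db/m 5 (683). Median centring gave 363 higher and 751 lower, and without db/db 1 it gave 910 higher and 1309 lower, in place of 1127 and 977. Without db/db 1 the block gave 985 in place of 2104. Over the 163 other listed genes 12 were called, 3 with the block, 24 with array weights and 5 to 22 with 1 array left out; without db/db 1 the count was 22, or 9 with the block.

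Cdkn1a kept its change of 1.77 with the block but missed the threshold (adjusted p = 0.0569). Plk3 missed it with the block (0.81, adjusted p = 0.104), repeated quantile normalisation (0.74, adjusted p = 0.0618), median centring (0.74, adjusted p = 0.0605) and without db/db 1 and 2 (0.74, adjusted p = 0.103). With 1 array left out, Plk3 ranged from 0.61 to 0.90, Trp53inp1 from 0.25 to 0.34, Cdkn1b from -0.14 to 0.073 and Mdm2 from -0.20 to 0.0039. Trp53inp1 passed with array weights (0.33, adjusted p = 0.0175) and without db/db 1 and 2 (0.37, adjusted p = 0.037). In the comparison without db/db 1, Plk3 passed with the block (0.57, adjusted p = 0.0229), with dim genes left out and with trend and robust settings (0.77 each, adjusted p = 0.0413 and 0.0358), while Trp53inp1 missed the threshold with the block (0.30) and median centring (0.30). Cdkn1b turned sign with repeated quantile normalisation (0.0040), array weights (0.040) and without db/db 1 and 2 (0.032), and, without db/db 1, with median centring (-0.019). The cause was not tested. No sign of pairing by mouse number was found: deviations from group means correlated at -0.0948 to 0.00599 within a number, and 0 of 10 arrays correlated best with its own number. Effects shared by littermates were not tested. Windows of 10 and 40 Mb around Lepr held 10% and 8.87% called genes.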
